A study of Glycine max with 8 samples.

Results

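Many plant genes give rise to more than 1 mature mRNA through alternative splicing, alternative transcription starts or alternative polyadenylation. The transcripts of such a locus can code for different proteins or differ in their untranslated regions, and stress is known to change the balance between them in leaves. The loci described here are 108 soybean loci whose own transcripts responded unequally to a first drought. A locus was taken when it had 2 or more transcripts in the deposited expression table, each with a mean log2 signal of at least 6 in the well-watered or the drought condition, and when the drought response differed by more than 2 on the log2 scale (4-fold) between its highest and lowest transcript. Of 47125 loci in that table, 6117 had 2 or more transcripts and 3121 passed the level criterion, so the 108 loci were 3.46% of those that could qualify. They held 231 transcripts, with 2 transcripts in 95 loci, 3 in 11 and 4 in 2. The transcript with the highest response is called the high transcript and the one with the lowest response the low transcript.

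All samples were leaves of seedlings of Glycine max cv. Daepoong. WT1 was well watered, and DR1 came from seedlings grown for 7 d and then kept without water for 4 d (a sample label gives 4 hours, whereas the treatment protocol and the methods give 4 d). WT2 was the drought-treated plate watered again for 1 d, and DR2 was the same plate after a second drought of 4 d. WT1 and DR1 came from parallel plates of the same age, whereas DR2 came from older plants than WT2 and no watered plate of that age is among the samples, so plant age moved with the second drought. Each condition was measured on 2 single-colour arrays, from 2 independent experiments, with the primary leaves of several seedlings pooled in a sample.

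The 8 arrays had 178031 spots each, a median spot signal between 82.5 and 145 over a local background between 27 and 33, no saturated spot, and between 55.24% and 65.22% of probes well above background, lowest at DR2. Leaf markers were present. All 14 annotated transcripts of chlorophyll a/b-binding proteins and the annotated transcripts with a domain of the RuBisCO small subunit were well above background at WT1. The WT1 and DR1 arrays shared 1 slide and the WT2 and DR2 arrays the other, so each drought was compared with its watered state within a slide. In leaf RNA, fewer cells of a type and less RNA per cell cannot be told apart.

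The loci were selected on the DR1 minus WT1 values of the deposited table, so the values of the first drought are a description. In the deposited table the spread between the highest and lowest transcript of a locus ran from 2.0001 to 8.01 on the log2 scale, with a median of 2.73, against a median of 0.26 over all 3121 loci. The median response was 2.21 for the high transcripts and -0.82 for the low ones. In 41 loci the high transcript rose by 2-fold or more while the low transcript stayed within 2-fold, and in 29 loci the low transcript fell while the high one stayed within 2-fold. In 17 loci the transcripts moved in opposite directions by 2-fold or more each. In 16 loci both rose and in 5 both fell, to unequal extents. The loci just inside the limit were Glyma.12G011800 (2.0001), Glyma.05G105100 (2.0023) and Glyma.19G167900 (2.016), and those just outside were Glyma.13G203700 (1.9994), Glyma.12G003500 (1.9926) and Glyma.08G049400 (1.9771).

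The loci lay on all 20 chromosomes, as their names give them, and 1 locus lay on an unplaced scaffold. Their share of the loci tested ran from 0.741% on chromosome 19 (1 of 135) to 5.83% on chromosome 3 (7 of 120), against 3.46% of all loci tested. Chromosomes 6, 7, 8 and 20 held 8 each (4.08%, 4.79%, 3.54% and 5.59%). The high transcript was the one numbered 1 in 36 of the 108 loci (33.3%), and the low transcript was number 1 in 66 (61.1%). Among the 3013 other loci these shares were 47.7% and 47.6%.

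The second drought asked whether the same transcripts of a locus parted again, on arrays that had no part in choosing the loci. The measure was the difference between the high and the low transcript on each array, normalised from the scanner signals, and its change from WT2 to DR2 was tested with limma over all 3121 loci. In 59 of the 108 loci the difference grew again by more than 4-fold in the direction of the first drought at a Benjamini-Hochberg adjusted P below 0.05 (54.6%), against 254 of 3121 loci tested (8.14%). In 2 loci it changed by as much in the opposite direction, against 48 of all loci tested (1.54%). The remaining 47 loci passed in neither direction. The median change of the difference was 2.19 in the 108 loci and 0.23 in all loci tested, and it was above 0 in 101 of 108 loci and in 1847 of the 3013 others. Both DR2 arrays lay above both WT2 arrays in 86 of the 108 loci (79.6%), against 48.2% of all loci tested, and both lay below in 4 loci, against 24.1%.

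**Figure D1:**
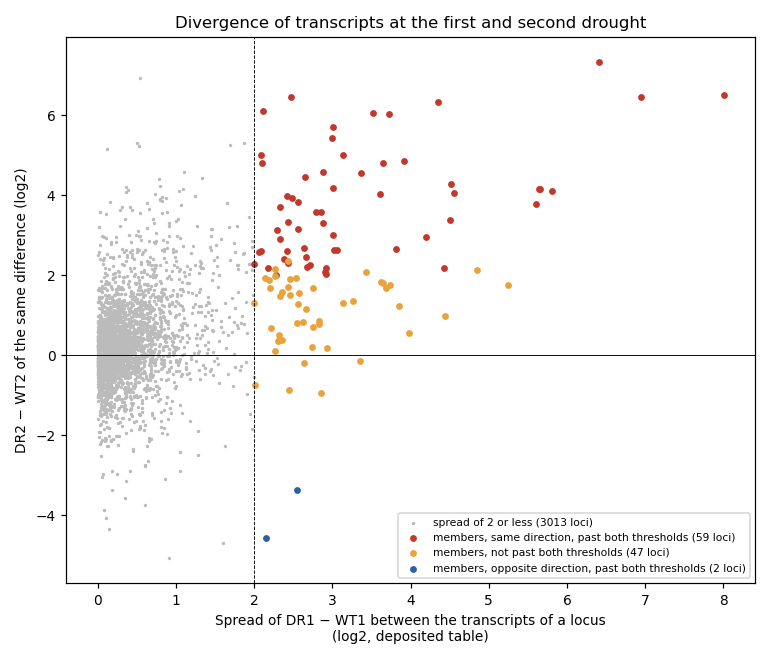
Each point is a locus: the spread of DR1 minus WT1 between its highest and lowest transcript in the deposited table (x axis, log2) against the change of the same difference from WT2 to DR2 (y axis, log2). The dashed line marks the spread of 2 that chose the 108 coloured loci, so the x axis is a description. Of the coloured loci, 59 passed both thresholds in the same direction and 2 in the opposite one.

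The 2 WT2 arrays were unlike each other in these loci. The median difference between high and low transcript, as a change from its WT1 mean, was 2.81 and 2.76 on the DR1 arrays, 0.94 and 0.06 on the WT2 arrays, and 2.77 and 2.89 on the DR2 arrays. On WT2 replicate 1 the difference lay nearer to its DR1 mean than to its WT1 mean in 34 of the 108 loci, and on WT2 replicate 2 in 8. The number of loci called in the same direction was higher without WT2 replicate 1 and lower without WT2 replicate 2. Those fits had 1 WT2 array, and no share over all loci is given for them.

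**Figure D2:**
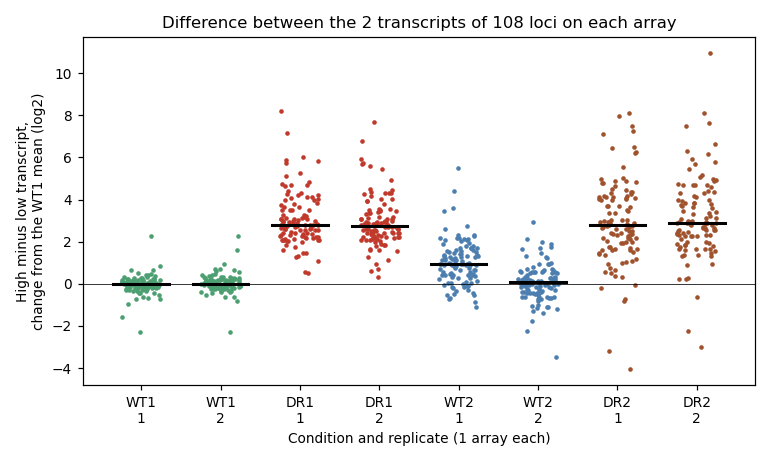
For each of the 8 arrays (x axis), the difference between the high and the low transcript of each of the 108 loci is drawn as its change from the WT1 mean of that locus (y axis, log2), with a bar at the median. The medians are 0.94 and 0.06 on the WT2 arrays and 2.77 and 2.89 on the DR2 arrays.

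The largest spread at the first drought belonged to Glyma.05G126800, which carries a SURNod19 domain, named for a stress up-regulated nodulin. The log2 signal of its transcript 1 was 3.90 and 3.88 at WT1, 12.74 and 12.22 at DR1, 9.57 and 3.88 at WT2, and 15.19 and 16.21 at DR2. Transcript 2 gave 8.15 and 8.39, 8.92 and 8.92, 8.45 and 7.70, and 11.48 and 9.63 in the same order. Both droughts thus raised transcript 1 above every watered array, whereas transcript 2 stayed close to its watered level at DR1 and was higher on both DR2 arrays. Transcript 1 was not well above background at WT1 and was at least 230-fold higher at DR1, a bound set by the dimmest detected probe of each WT1 array. From WT2 to DR2 the difference between the transcripts grew by 6.50 (SE 1.60, limma adjusted P = 0.0183), with the WT2 replicates of transcript 1 far apart. It missed the threshold when only the WT2 and DR2 arrays were fitted (adjusted P = 0.0701) and without DR2 replicate 2 (adjusted P = 0.0667).

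In the next 6 loci by spread the transcript numbered 1 fell while another transcript rose. Glyma.09G026800 codes for a protein of the fatty acid hydroxylase family, enzymes of sterol and wax metabolism. Its transcript 1 gave log2 signals of 9.72 and 9.71 at WT1, 5.29 and 5.44 at DR1, 9.01 and 9.54 at WT2, and 4.15 and 4.15 at DR2. Transcript 2 gave 10.40 and 10.37, 13.13 and 12.91, 11.36 and 10.41, and 12.10 and 12.29. The watered and drought arrays of both transcripts did not overlap in either cycle. Transcript 1 was not well above background at DR2 and was at least 24.8-fold lower there than at WT2 (limma adjusted P = 9.4e-07). The difference between the transcripts grew by 6.44 at the second drought (SE 0.45, adjusted P = 0.000192), or by at least 5.94 with transcript 1 at its bound.

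Glyma.08G152800, with the leucine-rich repeats typical of receptor-like kinases and related receptors, had the largest change at the second drought among the 108 loci. Transcript 1 gave log2 signals of 11.55 and 11.89 at WT1, 8.44 and 8.65 at DR1, 11.76 and 12.23 at WT2, and 5.86 and 4.67 at DR2. Transcript 2 gave 4.61 and 4.47, 5.96 and 5.77, 4.44 and 4.43, and 4.93 and 5.14. The change of the difference, 7.33 (SE 0.46, limma adjusted P = 0.000153), came mostly from transcript 1, which fell by 6.73 (SE 0.38, adjusted P = 2.3e-06). The separate probe for a unique exon of transcript 1, however, gave 6.59 and 6.71 at WT2 and 6.66 and 6.36 at DR2, a change of -0.13. Transcript 2 was read by 2 probes, of which 1 rose by 3.23 from WT1 to DR1 and the other fell by 0.58. The latter lay below the dimmest detected probe on every array.

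The other loci with opposite responses and the widest spreads were Glyma.10G291400 (a hydrolase), Glyma.20G033900 (the domain of expansins, which loosen cell walls, and of pollen allergens), Glyma.08G336800 (an amino acid transporter), Glyma.03G124300 (a domain of the SCAB proteins, which in Arabidopsis bind actin during stomatal closure), Glyma.05G188800 (actin) and Glyma.05G151200 (an AMP-binding enzyme, a family that activates acyl groups). Each was called in the same direction at the second drought, with changes of the difference of 4.10, 4.16, 4.14, 3.77, 4.05 and 4.28 in that order and SEs between 0.46 and 0.59. Transcript 1 of Glyma.05G151200 was not well above background at DR2, so the change of that locus was at least 3.80. The rising transcript of each locus was read by 1 probe and had a course over the arrays shared with many transcripts of other loci, described below. Whether these probes also read other transcripts was not tested. In all 6 loci the transcript numbered 1 was called lower at DR2 than at WT2. The actin locus gives an example. Its transcript 1 had log2 signals of 10.96 and 11.13 at WT1, 9.90 and 10.06 at DR1, 11.13 and 11.27 at WT2, and 8.96 and 9.11 at DR2, and transcript 2 had 9.27 and 9.29, 12.99 and 12.81, 10.63 and 9.12, and 11.47 and 12.05.

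**Figure D3:**
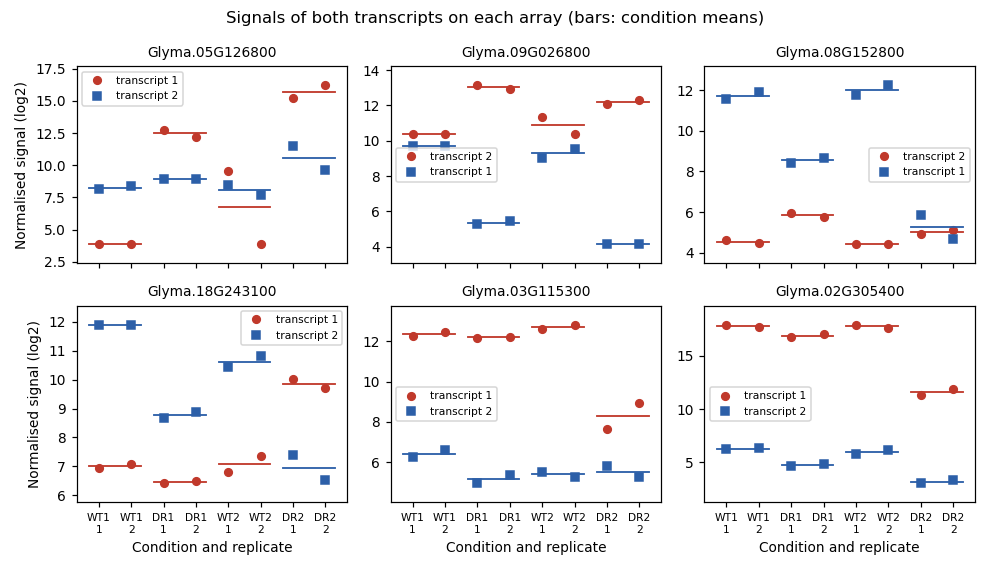
Normalised log2 signals (y axis) of the high transcript (red) and the low transcript (blue) of 6 loci on each of the 8 arrays (x axis), with a bar at each condition mean (n = 2). In Glyma.05G126800, Glyma.09G026800, Glyma.08G152800 and Glyma.18G243100 the difference grew from WT2 to DR2, by 6.50, 6.44, 7.33 and 6.45, and in Glyma.03G115300 and Glyma.02G305400 it shrank, by 4.56 and 3.37. Levels of different transcripts come from different probes and are not comparable with each other.

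The largest changes of the difference at the second drought also included Glyma.18G243100, Glyma.07G001800, Glyma.04G054100, Glyma.17G249300 and Glyma.06G157000, whose spreads at the first drought were 2.47, 4.35, 2.11, 3.73 and 3.52. Glyma.18G243100 carries the N-terminal domain of xylanase inhibitors, which is related to aspartic proteases. Its transcript 2 gave log2 signals of 11.90 and 11.89 at WT1, 8.67 and 8.89 at DR1, 10.44 and 10.81 at WT2, and 7.40 and 6.51 at DR2, and transcript 1 gave 6.94 and 7.07, 6.42 and 6.49, 6.79 and 7.37, and 10.02 and 9.71. Transcript 1 was thus slightly below its watered level at DR1 and above every other array at DR2, where it was higher than at WT2 by 2.78 (SE 0.25, limma adjusted P = 2.6e-05). The difference grew by 6.45 (SE 0.21, adjusted P = 4.15e-05).

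In Glyma.07G001800, a carrier of the mitochondrial inner membrane family, the log2 signal of transcript 1 was 11.30 and 10.56 at WT1, 7.34 and 7.50 at DR1, 10.53 and 10.85 at WT2, and 5.81 and 5.72 at DR2, and that of transcript 3 stayed between 4.32 and 6.14. The difference between them grew by 6.32 (SE 0.26, limma adjusted P = 4.61e-05) at the second drought.

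In Glyma.04G054100, which belongs to the cyclopropane fatty acid synthase family, both transcripts fell at DR1. Transcript 1 gave log2 signals of 11.23 and 11.13, 7.38 and 7.50, 11.41 and 11.52, and 4.36 and 4.42 at WT1, DR1, WT2 and DR2, and transcript 2 gave 11.88 and 11.73, 10.19 and 10.23, 11.93 and 12.43, and 11.47 and 10.97. At DR2 transcript 1 was not well above background and was at least 112-fold lower than at WT2. The difference grew by 6.11 (SE 0.23, limma adjusted P = 4.15e-05), or by at least 5.85 with transcript 1 at its bound.

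Glyma.17G249300, with a domain of deubiquitinating or deSUMOylating peptidases, reached a change of 6.03 (SE 0.33, limma adjusted P = 9.31e-05). Its transcript 1 gave log2 signals of 10.32 and 10.22, 9.13 and 9.28, 10.21 and 10.63, and 5.79 and 6.11, and its transcript 2 gave 6.45 and 6.39, 9.27 and 8.94, 7.12 and 6.60, and 8.41 and 8.44. Glyma.06G157000, for which no domain name was at hand, was an example of 2 rising transcripts. Transcript 1 gave 3.95 and 3.89, 10.76 and 10.62, 7.91 and 3.83, and 14.12 and 13.10, and transcript 2 gave 10.36 and 10.47, 13.98 and 13.63, 11.81 and 10.41, and 12.62 and 12.97. Transcript 1 of this locus rose again at DR2, above its DR1 signals, while transcript 2 stayed below its own, and the difference grew by 6.05 (SE 0.85, adjusted P = 0.00219).

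The 2 loci with a change in the opposite direction had in common a transcript 1 that changed by less than 2-fold at DR1 and fell by more than 4-fold at DR2. Glyma.02G305400 codes for a chlorophyll a/b-binding protein of the light-harvesting complex. Transcript 1 gave log2 signals of 17.93 and 17.69 at WT1, 16.75 and 17.03 at DR1, 17.87 and 17.64 at WT2, and 11.36 and 11.86 at DR2, and fell by 6.14 from WT2 to DR2 (SE 0.25, limma adjusted P = 5.7e-07). Transcript 2 gave 6.28 and 6.31, 4.68 and 4.81, 5.81 and 6.12, and 3.03 and 3.36. The difference changed by -3.37 (SE 0.21, adjusted P = 0.000153), but transcript 2 was not well above background at DR2, so its fall there is a lower bound of 2.49-fold. Of its 2 probes, 1 changed by -0.44 from WT2 to DR2, but lay between 3.29 and 4.17, below the dimmest detected probe of every array. The other changed by -5.10, to 2.25 and 3.43 at DR2, also below the dimmest detected probes. The fall of transcript 2 is thus a mean that includes a probe without a detected signal. In the deposited table the difference changed by -0.77 and was not called.

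Glyma.03G115300 codes for a cytochrome P450, a family of oxidising enzymes in hormone and secondary metabolism. Transcript 1 gave log2 signals of 12.28 and 12.45, 12.18 and 12.22, 12.64 and 12.84, and 7.67 and 8.95 at WT1, DR1, WT2 and DR2, and transcript 2 gave 6.25 and 6.61, 4.96 and 5.35, 5.52 and 5.26, and 5.80 and 5.25. The arrays of transcript 2 overlapped between WT2 and DR2. Of its 2 probes, 1 stayed between 3.06 and 3.92, below the dimmest detected probe of every array. The other changed by -2.32 from WT1 to DR1 and by 0.21 from WT2 to DR2. The spread at the first drought was 1.11 with the mean over probes, against 2.15 in the deposited table. Transcript 1 fell by 4.43 at the second drought (SE 0.37, limma adjusted P = 1.7e-05), and the difference changed by -4.56 (SE 0.55, adjusted P = 0.00131).

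Taken one by one, 41 of the 108 high transcripts were called higher at DR2 than at WT2 and 3 were called lower, and 34 of the 107 low transcripts tested were called lower and 14 higher (limma, over 4-fold at adjusted P below 0.05). The shares over all 55087 transcripts tested were 13.0% higher and 15.1% lower. Fewer high transcripts were called higher without WT2 replicate 2, a fit with 1 WT2 array for which no share over all transcripts is given. Among the 59 loci called in the same direction, the low transcript alone was called lower in 27, the high transcript alone was called higher in 16, both moved apart in 3, both rose in 2 and both fell in 1, and neither transcript alone was called in 10.

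The pattern at the first drought was followed by unequal counts at the second. Where the transcripts had moved in opposite directions, 15 of 17 loci were called again, and the median change of the difference was 4.10. Where the low transcript alone had fallen, 18 of 29 loci were called in the same direction and 2 in the opposite one, with a median of 2.31. Where the high transcript alone had risen, 19 of 41 were called, with a median of 2.02. Where both had risen, 4 of 16 were called, with a median of 1.77, although 15 of the 16 high and 11 of the 16 low transcripts were called higher themselves. Where both had fallen, 3 of 5 were called. Over all loci tested, of any pattern, 8.14% were called in the same direction and 1.54% in the opposite one, and 13.0% of all transcripts tested were called higher. Shares over all loci by pattern are not given. The differences between the counts of the patterns were not tested.

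**Figure D4:**
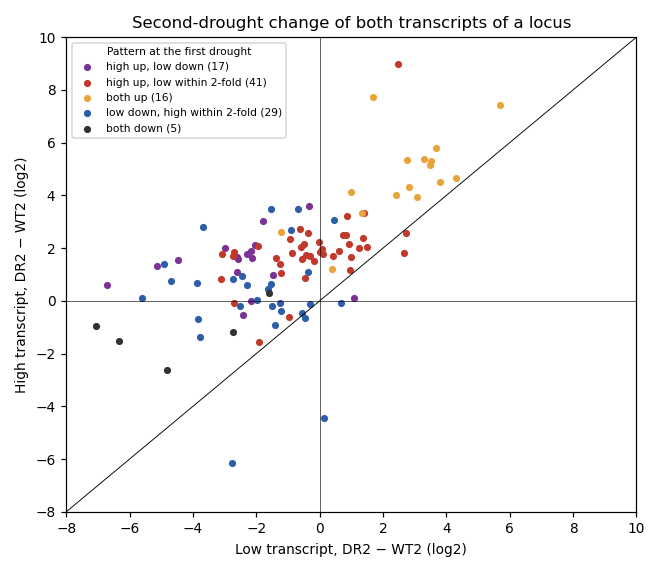
Change from WT2 to DR2 of the low transcript (x axis, log2) and the high transcript (y axis, log2) of the 108 loci, coloured by their pattern at the first drought. Points above the diagonal had a difference that grew again, which holds for 101 loci, and the loci where both transcripts had risen (orange) lie mostly in the upper right.

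Transcripts that both rose are well shown by Glyma.14G162100, a protein phosphatase of the PP2C family, whose clade A members hold down abscisic acid signalling. Transcript 1 gave log2 signals of 8.21 and 8.24 at WT1, 15.14 and 15.18 at DR1, 12.69 and 9.14 at WT2, and 15.31 and 15.86 at DR2, and transcript 3 gave 3.67 and 4.11, 8.24 and 8.24, 6.01 and 4.30, and 9.35 and 9.55. Both transcripts were called higher at DR2 than at WT2, by 4.67 (SE 0.89, limma adjusted P = 0.0017) and 4.29 (SE 0.47, adjusted P = 7.3e-05). The difference between them changed by 0.38 (SE 0.54, adjusted P = 0.6). Its sign turned to -0.54 without WT2 replicate 2.

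Glyma.11G067900 and the amino acid transporter locus Glyma.18G071700 had the same form. Their transcript 1 rose from 4.30 and 4.02 to 12.42 and 12.21, and from 5.14 and 5.04 to 12.69 and 12.48, between WT1 and DR1. In both loci transcript 1 was nearer to its DR1 than to its WT1 signals on WT2 replicate 1 (9.52 and 9.69) and close to its WT1 signals on WT2 replicate 2 (4.05 and 5.24). The differences changed by 1.75 (SE 1.26, limma adjusted P = 0.296) and 2.13 (SE 0.98, adjusted P = 0.124) and were not called. Without WT2 replicate 1 that of Glyma.11G067900 was 3.91, and without WT2 replicate 2 its sign turned negative.

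Domain names came from the study's annotation of drought-changed transcripts and covered 68 of the 108 loci and 336 of the 3121, so loci with a drought response are overrepresented among those with a name. By the domain names in the lists 4 of 16 tested protein kinase loci were members, as were 4 of 18 membrane transport loci, 3 of 6 loci of ubiquitin ligases and proteases, 2 of 23 transcription factor loci, 1 of 7 loci of PP2C phosphatases, 1 of 13 photosynthesis loci and 1 of 4 drought protection loci. Over all loci with a domain name the share of members was 20.2%. None of the 4 loci for RNA binding and splicing and none of the 4 chaperone loci was a member. Of these 16 members, 7 were called in the same direction at the second drought and 1 in the opposite one, against 54.6% of the 108 loci and 8.14% of all loci tested in the same direction. The lists do not hold every domain of a class. Glyma.06G133000 (OPT, of oligopeptide transporters), Glyma.11G068800 (ZF-HD_dimer, of zinc finger homeodomain factors) and Glyma.13G144600 (a further MYB-type domain) are members outside them, and only Glyma.11G068800 of these was called at the second drought.

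Among the kinases, Glyma.16G203300 and Glyma.06G081800 were called, with changes of the difference of 5.001 (SE 0.42, limma adjusted P = 0.000362) and 4.55 (SE 0.50, adjusted P = 0.000896). Glyma.16G203300-1 had log2 signals of 6.57 and 6.38 at WT1, 4.32 and 4.77 at DR1, 6.20 and 6.36 at WT2, and 3.34 and 3.25 at DR2, and Glyma.16G203300-2 had 6.19 and 6.61, 7.73 and 7.24, 5.41 and 5.01, and 7.63 and 6.81. The first was not well above background in either drought and was at least 3.76-fold lower at DR1 and at least 3.11-fold lower at DR2. Glyma.06G081800-1 was not well above background at DR2 either, so the differences grew by at least 3.65 in Glyma.16G203300 and at least 4.07 in Glyma.06G081800. Glyma.20G139900 and Glyma.10G038400 stayed under the 4-fold limit, with changes of 1.92 (SE 0.19) and -0.87 (SE 0.18).

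Transport and protein turnover were represented by loci of both outcomes. Glyma.16G110100, an ABC transporter, changed by 0.81 (SE 0.45, limma adjusted P = 0.189). Glyma.04G199200, a ubiquitin-conjugating enzyme, had 3 transcripts. Its transcript 2 gave log2 signals of 10.31 and 10.37, 6.22 and 6.52, 8.94 and 9.91, and 7.37 and 6.59, while transcript 1 stayed between 11.39 and 11.84 and transcript 3 between 7.44 and 8.67. The difference between transcripts 3 and 2 grew by 3.38 at the second drought (SE 0.29, adjusted P = 0.000401). The RING-finger locus Glyma.20G076700 and the ubiquitin hydrolase locus Glyma.12G011800 changed by 1.75 (SE 0.45) and 1.30 (SE 0.27) and were not called, being under 4-fold.

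Of the transcription factor loci, the MYB locus Glyma.18G261400 was called. Its transcript 2 gave log2 signals of 5.17 and 5.78 at WT1, 10.04 and 9.55 at DR1, 6.40 and 5.67 at WT2, and 8.71 and 8.49 at DR2, and its transcript 1 stayed between 5.64 and 6.79. The difference grew by 2.94 (SE 0.37, limma adjusted P = 0.00149). The GRAS locus Glyma.17G007600 changed by 1.71 (SE 0.33). The drought protection member, Glyma.12G234200, has the domain of trehalose-6-phosphate synthases, which make the precursor of trehalose. Its transcript 3 was at least 6.42-fold lower at DR1 than at WT1 and at least 4.92-fold lower at DR2 than at WT2. Transcript 5 stayed between 10.51 and 11.56 on the log2 scale, and the difference between transcripts 5 and 3 grew by 2.91 (SE 0.36, adjusted P = 0.00142). Transcript 1, the other one measured, also fell in both droughts. Its 2 probes changed by -1.70 and -2.11 from WT1 to DR1 and by -1.34 and -2.22 from WT2 to DR2.

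Both loci with 4 measured transcripts had no domain name. In Glyma.13G238400 the transcripts 1, 4 and 7 changed at DR1 by 1.56, 1.58 and 1.32, and transcript 3 by 0.00 on the scanner scale and -0.77 in the deposited table. The value of 0.00 is a mean of 2 probes that changed by -0.78 and 0.77. The latter probe lay between 2.59 and 4.29 at WT1 and DR1, below the dimmest detected probes of those arrays. In Glyma.04G006200 the high transcript was number 2, which changed by 1.64 in the deposited table and by 0.17 as the mean of its 4 probes. Its probes 1, 2 and 3 stayed between 2.90 and 4.72 on the log2 scale, near the edge of detection, and probe 4 changed by 1.66. Transcripts 3, 4 and 1 of this locus changed by 1.25, 0.11 and -0.68 on the scanner scale.

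How many probes stood behind a transcript differed between the members and the rest. The high transcript was read by a single probe in 62 of the 108 loci (57.4%), against 35.1% of the 3013 other loci, and the low transcript in 32 (29.6%), against 39.0%. Loci whose high transcript had 1 probe were called in the same direction in 38 of 62, against 12.9% of all loci tested with 1 probe there, and those with 2 or more probes in 21 of 46, against 5.49%. Where both transcripts had 2 or more probes, 9 of 18 loci were called, against 7.52% of all such loci tested. In 10 of these 18 loci every probe of the high transcript changed more than every probe of the low transcript at the second drought. No share over all such loci is given for that count.

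The deposited changes were not always those of the mean over probes. For 15 of the 231 transcripts the DR1 minus WT1 change in the deposited table differed by more than 0.5 from the mean over all probes of the transcript, and in 11 of the 15 it lay within 0.2 of the change of a single probe. In 12 of the 108 loci the spread was 2 or less on the scanner scale, among them Glyma.02G305400, Glyma.03G115300 and Glyma.10G038400. When the rule was applied to the scanner values it took 88 of 2612 loci, 83 of them shared with the 108.

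Many high transcripts had a similar course over the arrays. The high transcript with the highest DR1 signal, Glyma.16G140300-2, served as the reference, a choice made after the values were seen. Its log2 signals were 15.46 and 15.60 at WT1, 17.61 and 17.54 at DR1, 16.20 and 15.19 at WT2, and 17.21 and 17.58 at DR2. Across the 8 arrays, 45 of the 108 high transcripts, the reference included, had a Pearson r of at least 0.95 with it, as did 7 low transcripts. Among high transcripts the share was 35 of 62 with 1 probe and 10 of 46 with 2 or more. These 45 transcripts reached, as the median, 0.35 of their DR1 change on WT2 replicate 1, -0.03 on WT2 replicate 2, and 0.71 and 0.83 on the DR2 arrays. The range was wide, from 0.04 to 0.70 on WT2 replicate 1 and from 0.52 to 1.41 on DR2 replicate 1, and r over these arrays includes the rise at DR1 for which high transcripts were chosen. The course was not particular to these loci. Among all tested transcripts that rose by more than 4-fold at DR1 it was found in 166 of 332 with 1 probe (50.0%). With 2 or more probes it was found in 480 of 1654 (29.0%). The rising transcripts of Glyma.09G026800, Glyma.10G291400, Glyma.20G033900, Glyma.08G336800, Glyma.03G124300, Glyma.05G188800 and Glyma.05G151200, each with 1 probe, were among the 45. Their r ran from 0.960 to 0.986. Whether probes with this course also read other transcripts was not tested.

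The closest members by this measure were Glyma.03G109400-3 (r = 0.997), Glyma.14G176900-2, of the 14-3-3 family of phosphoprotein-binding proteins (r = 0.996), Glyma.16G091600-2 (r = 0.996) and Glyma.03G099900-2 (r = 0.995), each with 1 probe. Their rises from WT1 to DR1 were 2.71, 2.54, 2.56 and 2.90 on the log2 scale. The points share the 8 arrays and the same 2 samples per condition, and r is given as a description.

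**Figure D5:**
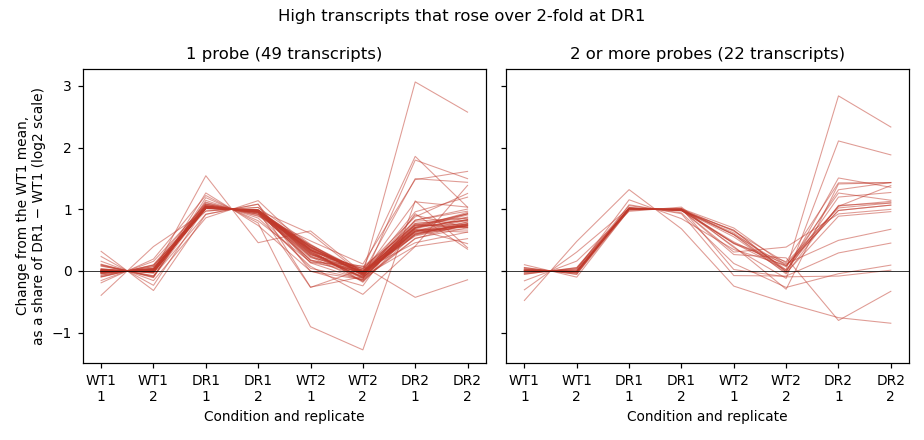
High transcripts that rose more than 2-fold from WT1 to DR1 on the scanner scale, 49 read by 1 probe (left) and 22 read by 2 or more (right). Each line is a transcript, drawn as its change from the WT1 mean divided by its DR1 change (y axis) over the 8 arrays (x axis). Among the 45 transcripts with r of at least 0.95 the median is 0.35 on WT2 replicate 1 and -0.03 on WT2 replicate 2, and single lines depart widely on the DR2 arrays.

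Signals at the edge of detection were unevenly placed. No probe was well above background on any array of the condition for 20 high and 10 low transcripts at WT1, 1 and 7 at DR1, 6 and 5 at WT2, and 5 and 20 at DR2. When only loci with both transcripts well above background at both WT2 and DR2 were kept, 31 of 53 members were called in the same direction and 1 in the opposite one, against 5.77% of the 2270 such loci in the same direction. Among the 59 loci called in the same direction, 16 had a falling low or rising high transcript with no probe well above background at its dimmer end, and in 13 of the 16 the change of the difference was still over 2 with that transcript at its bound.

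Separate probes for a unique exon of a transcript gave a further reading. Of 77 such entries in the member loci, 31 belonged to the high or low transcript and were well above background in at least 1 condition. The response to the first drought was nearer to that of the transcript's own probes than to that of the other transcript in 8 of 14 entries for high transcripts and 13 of 17 for low ones. At the second drought the numbers were 9 of 14 and 10 of 17. The unique exon of Glyma.11G067900-1 changed by 7.47 at the first drought against 8.16 for its transcript. That of Glyma.05G126800-1 changed by 3.55 against 8.59, which was nearer to the 0.65 of the other transcript. It gave log2 signals of 4.44 and 3.56 at WT1, 7.78 and 7.31 at DR1, 5.36 and 3.99 at WT2, and 10.58 and 10.93 at DR2, so that it was above its watered arrays in both droughts. Its WT1 signals lay below those of the dimmest detected probes (4.69 and 4.59), so the size of its rise could not be read exactly. Entries also went away from their transcript. The unique exon of Glyma.17G154800-1 changed by -3.33 at the first drought against -0.64 for the transcript, and that of Glyma.04G006200-1 by 1.24 against -0.68.

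At the second drought the unique exons of the low transcripts of loci described above fell less than the transcripts' own probes or rose. The changes were -0.13 against -6.73 in Glyma.08G152800-1, -2.12 against -7.07 in Glyma.04G054100-1, -2.00 against -4.47 in Glyma.17G249300-1, -1.01 against -2.03 in Glyma.08G336800-1 and 0.65 against -2.70 in Glyma.04G006200-1. The dimmest detected probes of the DR2 arrays had log2 signals of 4.65 and 4.64. Below these lay the DR2 signals of the unique exons of Glyma.04G054100-1 (4.10 and 3.57), Glyma.17G249300-1 (4.49 and 4.25) and Glyma.08G336800-1 (3.93 and 4.40). The full extent of those falls could therefore not be read. For transcript 1 of the loci called in the opposite direction they were -3.97 against -4.43 in Glyma.03G115300 and -3.67 against -6.14 in Glyma.02G305400.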

How the data were processed

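Total RNA of leaves was labelled and hybridised to an array with probes for alternative soybean transcripts, 8 arrays in all. The deposited array files hold raw intensities per spot, a median signal and a local background median, from the Feature Extraction software (version 11.5.1.1 per the file headers). The authors also deposited a table of transcript intensities, which they had corrected for background and normalised with limma, with settings not given in the sources used here. Its log2 values chose the loci. For all other values, median signals were corrected with limma 3.58.1 (R 4.3.3, normexp, offset 0) and quantile normalised, spots marked as outliers (2 to 11 per array) were left out, and log2 values were averaged over the probes of a transcript. A mean per condition was fitted over the 8 arrays (lmFit, eBayes), on 3121 differences between 2 transcripts of a locus and on 55087 transcripts detected in at least 1 condition (1 or more probes well above background on each of its arrays), with Benjamini-Hochberg adjustment over each. A call needed a change over 2 on the log2 scale and an adjusted P below 0.05. The scripts were tested on simulated data. The number of arrays, 2 per condition, limits the precision, and depth does not apply to arrays.

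For a transcript with no probe well above background in a condition, the change is given as a bound against the dimmest detected probe of each array, or the transcript's own signal where higher. The replicate numbers may mark the 2 experiments. The correlation of deviations of same-numbered arrays ran from -0.308 to 0.297 over transcripts, so they were not treated as pairs. WT2 minus WT1 and DR2 minus DR1 cross slides and share arrays with the rule, so they were not tested. The second drought was not set against the first by a test either, since the first chose the loci.

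The members and the gene lists were chosen with earlier results of these data known. Loci were named by rule: the 12 widest spreads, the 8 widest with opposite responses, the 8 largest second-drought changes among those called and those called in the opposite direction, the 3 loci on each side of the limit, up to 4 members of each list and the loci with 4 or more transcripts. The other loci named, for the array course, the unique exons and the domains outside the lists, were chosen after their values were seen. Alternatives were other background, normalisation and probe summaries, the deposited table, filters, the rule's limits and leaving out each array. The 40 loci without a domain name are given by identifier. No coordinates or sequences were used.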

Additional observations from a re-analysis of the deposited data

Results flagged for a closer look

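In 4 of the 108 loci both DR1 arrays lay above both WT1 arrays in the difference between high and low transcript, and both DR2 arrays lay below both WT2 arrays. The rule favours the order at the first drought, since it chose the high transcript by its DR1 response. Among all 3121 loci tested, both DR2 arrays lay below both WT2 arrays in 24.1%. The difference between the responses to the first and second drought was not tested. The change from WT2 to DR2 was -4.56 in Glyma.03G115300 (cytochrome P450), -3.37 in Glyma.02G305400 (chlorophyll a/b-binding protein), -0.95 in Glyma.02G082100 and -0.87 in Glyma.10G038400 (protein kinase). Of these, only the first and second were called.

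In Glyma.02G082100 the WT1 arrays of transcript 2 were far apart, with log2 signals of 4.24 and 8.90, and its single probe was not well above background at WT2 or DR2. In Glyma.10G038400 the high transcript was read by 3 probes, which changed by -0.15, -0.51 and 2.50 from WT1 to DR1 and by 1.06, 0.94 and 3.39 from WT2 to DR2. Probes 1 and 2 stayed between 3.21 and 5.28 on the log2 scale, where the dimmest detected probes of the arrays had 4.29 to 4.69. The mean over the probes therefore includes 2 that lay near the edge of detection. In the deposited table the second-drought change of this locus was 0.91.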

How the results depend on the processing

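The count of 59 loci called in the same direction was between 54 and 65 under the other background corrections, normalisations and probe summaries and with the deposited table, and 77 at a 2-fold limit. It was 30 of 50 loci with a floor of 8, 26 of 39 with a spread over 3 and 31 of 53 with both transcripts well above background at WT2 and DR2, where fewer loci entered. The last setting, and dropping dim transcripts but not their loci (67 of 122), were chosen after seeing the data. The share over all loci tested was 8.14% at the main setting and 5.77% with both transcripts well above background at WT2 and DR2. For the other settings of this section no such share is given, so their counts have no background beside them. Leaving out 1 array at a time gave 50 to 75 loci, a median change of 1.91 to 2.65, 27 to 58 high transcripts called higher and 29 to 38 low transcripts called lower. The median was 2.79 with the processed signal scaled by the 75th percentile and 3.38 with a spread over 3, and the high transcripts called higher were 70 at a 2-fold limit. With the replicate number as a block, 60 loci were called in the same direction and 2 in the opposite one. The count of opposite calls was 1 with the deposited table and 0 among members chosen on the scanner values.

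Of 576 values of the 34 named loci under alternatives, 549 kept their direction and side of the threshold, 16 passed it newly, 6 lost it and 5 changed sign: Glyma.10G038400 with the deposited table (0.91), Glyma.14G162100 with the processed signal (-0.32), and, with 1 array left out at a time, Glyma.11G067900 (-0.42 to 3.91), Glyma.14G162100 (-0.54 to 1.29) and Glyma.19G167900 (-1.61 to 0.12), where the extremes lacked a WT2 array. The cause was not tested. Dim transcripts limit the reading most at WT1 for high and at DR2 for low transcripts.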
